A study of Brassica napus with 11 samples.

Results

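The transcripts described here are 5 *Brassica napus* homologs of 3 cuticle genes, taken by their transcript identifiers from the 97902 transcripts of the deposited table. They were chosen with earlier results of these data known. *PEL3* was represented by BnaC02g41520D and BnaA06g26500D, *MYB16* by BnaA02g02580D and BnaC02g05990D, and *LTP2* by BnaAnng27610D. The letter after "Bna" names the subgenome, A or C, so that *PEL3* and *MYB16* each had a homolog from either subgenome. The libraries came from the funiculus, the stalk that joins the developing seed to the maternal plant, of cultivar Topaz (line DH4079) at 7 days after pollination, when the embryo is globular. Laser microdissection, the cutting of chosen cells from tissue sections with a laser, gave 3 epidermis, 2 cortex and 3 vasculature libraries, and 3 whole funiculus libraries were collected as a control. All plants were of the same line and received no treatment, and the groups differed only in the tissue that was cut out. Each replicate was a pool of funiculus pieces from several plants. The study left whole funiculus 2 out of its averages because it grouped apart from the other libraries, so whole funiculus values below are those of libraries 1 and 3 unless library 2 is named.

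The cuticle is the layer of cutin and wax that plant epidermal cells deposit on their outer wall, and it limits water loss and keeps neighbouring organs from fusing. In Arabidopsis, *PEL3* encodes an acyltransferase required for a normal cutin layer, and *MYB16* encodes an R2R3-type MYB transcription factor that acts with its close relative *MYB106* on cuticle formation and on the shape of epidermal cells. *LTP2* encodes a lipid transfer protein, a small secreted protein of the cell wall that binds lipids and is associated with the cuticle.

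All 5 transcripts were highest in the epidermis, lower in the cortex and lowest in the vasculature, and for each of them every epidermis library lay above both cortex libraries and every cortex library above all 3 vasculature libraries. This full order was found for 2.51% of the 45300 transcripts tested. For *PEL3* BnaA06g26500D and *MYB16* BnaC02g05990D, cortex 1 stood above the vasculature by only 1 estimated fragment against 0. Of the 5 transcripts, 4 were on the epidermis-enriched list that the study picked on these same libraries by a threshold of 5-fold, and only the *MYB16* homolog BnaA02g02580D was not. Their difference between the epidermis and the other tissues is therefore not independent evidence. The step between cortex and vasculature was not part of the study's threshold. The 5 transcripts were, however, chosen with earlier results of these data known, so this step is not independent evidence either. Levels are given as FPKM, fragments per kilobase of transcript scaled to the number of mapped reads, so that they can be compared between transcripts of different length.

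*PEL3* BnaC02g41520D was at 391, 292 and 422 FPKM in the 3 epidermis libraries, at 52.2 and 88.1 FPKM in those of the cortex and at 2.77, 0.432 and 0.619 FPKM in those of the vasculature. The groups did not overlap, and the lowest epidermis library was 3.32 times the highest cortex library. The means were 368 ± 67.5 FPKM in the epidermis (SD, n = 3), 70.1 ± 25.3 FPKM in the cortex (SD, n = 2) and 1.27 ± 1.30 FPKM in the vasculature (SD, n = 3). The epidermis mean was thus 5.25 times the cortex mean, and the cortex mean 55.1 times the vasculature mean, so that most of the fall on the log scale lay between cortex and vasculature.

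The other *PEL3* homolog, BnaA06g26500D, was at 5.92, 3.92 and 9.92 FPKM in epidermis libraries and at 0.296 and 1.80 FPKM in cortex libraries, and it was listed at 0 in all 3 vasculature libraries. A single fragment of this transcript would have stood at 0.132 to 0.231 FPKM in the vasculature, so values under that were not detectable at this depth. Its epidermis mean, 6.59 ± 3.05 FPKM (SD, n = 3), was 6.28 times the cortex mean of 1.05 ± 1.07 FPKM (SD, n = 2). The value in cortex 1 rested on 1 fragment.

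*MYB16* BnaA02g02580D was at 17.3, 14.9 and 9.26 FPKM in the epidermis, at 1.31 and 2.00 FPKM in cortex libraries and at 0.438, 0 and 0.294 FPKM in vasculature libraries. The lowest epidermis library was 4.63 times the highest cortex library, the widest such gap of the 5 transcripts. The epidermis mean of 13.8 ± 4.12 FPKM (SD, n = 3) was 8.34 times the cortex mean of 1.66 ± 0.487 FPKM (SD, n = 2). The transcript was not absent from the vasculature, where 2 libraries held 2 fragments each.

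*MYB16* BnaC02g05990D was at 19.1, 14.2 and 24.3 FPKM in the epidermis, at 0.442 and 6.97 FPKM in cortex libraries, and listed at 0 in all 3 vasculature libraries. Its cortex libraries stood furthest apart of the 5 transcripts, cortex 2 at 15.8 times cortex 1, and the value in cortex 1 again rested on 1 fragment. The epidermis mean was 19.2 ± 5.06 FPKM (SD, n = 3) and the cortex mean 3.71 ± 4.62 FPKM (SD, n = 2), a ratio of 5.18. The SD of the cortex exceeded its mean, which leaves this ratio poorly determined.

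*LTP2* BnaAnng27610D was the most abundant of the 5, at 3253, 1610.4 and 2917 FPKM in the epidermis, 158 and 605 FPKM in the cortex and 13.4, 0.684 and 8.62 FPKM in the vasculature. By its mean of 2593 ± 868 FPKM (SD, n = 3) it was the transcript of rank 11 in the epidermis among all 97902. The cortex mean was 382 ± 316 FPKM (SD, n = 2), and the vasculature mean 7.57 ± 6.43 FPKM (SD, n = 3). The epidermis mean was 6.80 times the cortex mean, and the cortex mean 50.4 times the vasculature mean. In bulk tissue, fewer cells of a type and less RNA per cell cannot be told apart, so these levels do not say how many cells of the cortex or vasculature samples carried the transcript.

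**Figure D1:**
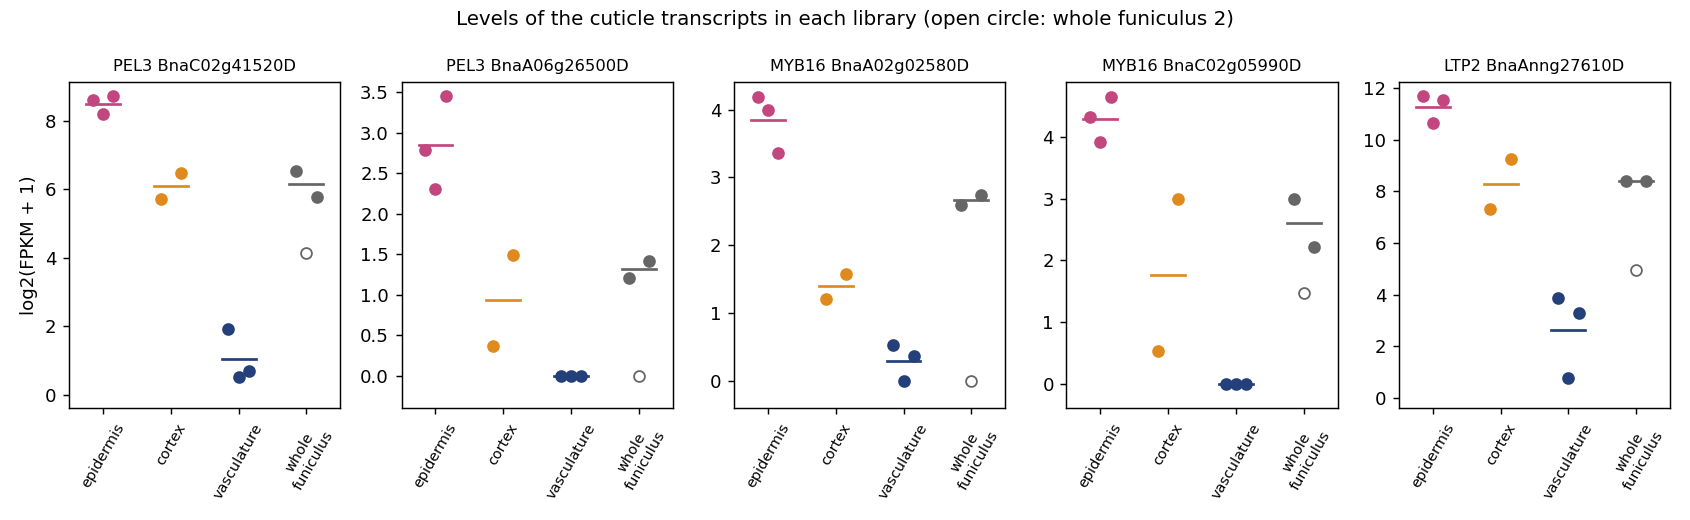
Level of each transcript, as log2(FPKM + 1) on the vertical axis, in every library, grouped by tissue on the horizontal axis. Each filled point is 1 library, lines are group means, and the open circle is whole funiculus 2, which is not in the mean. The epidermis points lie above the cortex points, and the cortex points above the vasculature points, in all 5 panels, whose vertical scales differ.

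On the level scale, which is per length, the order of the epidermis means was *LTP2*, *PEL3* BnaC02g41520D, *MYB16* BnaC02g05990D, *MYB16* BnaA02g02580D and *PEL3* BnaA06g26500D, at ranks 11, 71, 4137, 6151 and 13056 of all transcripts. The epidermis libraries of the first 3 did not overlap with each other. The 2 *MYB16* homologs overlapped in the epidermis, and *MYB16* BnaA02g02580D overlapped with *PEL3* BnaA06g26500D, at 9.26 FPKM in its lowest and 9.92 FPKM in the other's highest epidermis library. In the cortex, *LTP2* and *PEL3* BnaC02g41520D stood at ranks 82 and 838 and apart from the others, while both *MYB16* homologs and *PEL3* BnaA06g26500D overlapped. In the vasculature *LTP2* and *PEL3* BnaC02g41520D overlapped as groups, with *LTP2* the higher of the pair in each library.

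The FPKM values of the 5 transcripts were turned into estimated fragments, the step of 1 fragment being the largest of which all values of a transcript above 0, 46 in all, were whole multiples within 0.05 fragments after scaling by relative depth. For *LTP2* this gave 3530, 1666 and 4375 fragments in the epidermis, 181 and 1362 in cortex 1 and 2, and 23, 1 and 22 across the vasculature. *PEL3* BnaC02g41520D had 1342, 957 and 2001 fragments in the epidermis, 189 and 627 in cortex 1 and 2, and 15, 2 and 5 across the vasculature. These transcripts thus rested on 181 or more fragments in every epidermis and cortex library, and on at most 23 in the vasculature.

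The low transcripts rested on far fewer fragments. *MYB16* BnaA02g02580D had 50, 41 and 37 fragments in the epidermis, 4 and 12 in cortex 1 and 2, and 2, 0 and 2 across the vasculature. *MYB16* BnaC02g05990D had 41, 29 and 72 in the epidermis and 1 and 31 in the cortex, and *PEL3* BnaA06g26500D had 19, 12 and 44 in the epidermis and 1 and 12 in the cortex. With fragments pooled by tissue and divided by relative depth, the epidermis exceeded the cortex 7.50-fold for *MYB16* BnaA02g02580D (95% exact interval 4.45 to 13.5), 4.16-fold for *MYB16* BnaC02g05990D (2.82 to 6.32) and 5.41-fold for *PEL3* BnaA06g26500D (2.98 to 10.6). The same ratio was 4.94 for *PEL3* BnaC02g41520D (4.59 to 5.33) and 5.82 for *LTP2* (5.51 to 6.14). These intervals cover counting error only, and not the difference between libraries. For the epidermis over the vasculature the pooled ratio was 309 for *PEL3* BnaC02g41520D (204 to 494), 329 for *LTP2* (247 to 450) and 50.6 for *MYB16* BnaA02g02580D (19.3 to 189), the last on 4 vasculature fragments. Whether the ratios differed between transcripts was not tested. They moved with single libraries: without vasculature 1 the ratio over the vasculature was 681 for *PEL3* BnaC02g41520D, 462 for *LTP2* and 71.0 for *MYB16* BnaA02g02580D. Without cortex 2 the ratio over the cortex was 7.19 for *PEL3* BnaC02g41520D, 16.7 for *LTP2*, 10.1 for *MYB16* BnaA02g02580D, 23.7 for *PEL3* BnaA06g26500D and 44.9 for *MYB16* BnaC02g05990D, the last 2 against a single fragment in cortex 1.

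The first comparison asked whether the transcripts were higher in the epidermis than in the cortex. All 5 had a positive log2 difference of 1.92 to 3.00 on the scale of log2(FPKM + 1), with a median of 2.45 against -0.01 over all transcripts tested. After Benjamini-Hochberg adjustment over 45300 transcripts with limma, *MYB16* BnaA02g02580D alone was higher in the epidermis, with a log2 difference of 2.45 ± 0.36 (SE, adjusted p = 0.0486), in 3 of 3 epidermis libraries. In this comparison 0.0883% of all transcripts were higher at that threshold. *PEL3* BnaC02g41520D had 2.41 ± 0.47 (SE, adjusted p = 0.0804) and *MYB16* BnaC02g05990D 2.54 ± 0.62 (SE, adjusted p = 0.146). *LTP2* had the largest difference, 3.00 ± 0.91 (SE, adjusted p = 0.244), and *PEL3* BnaA06g26500D the smallest, 1.92 ± 0.45 (SE, adjusted p = 0.133). All 5 had an unadjusted limma p under 0.05, as did 4756 of the 45300 transcripts in either direction. All 5 also had every epidermis library above both cortex libraries, as 10.6% of all transcripts did. The call of *MYB16* BnaA02g02580D was lost when any 1 of the 8 libraries was left out (log2 difference of 2.26 to 2.69, adjusted p of 0.0766 to 0.131). *MYB16* BnaC02g05990D passed without cortex 2, at a log2 difference of 3.78 (adjusted p = 0.0190), and had 1.31 without cortex 1.

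Against the vasculature, all 5 transcripts were higher in the epidermis (limma, 5 of 5, where 6.42% of all transcripts were higher). The log2 difference was 8.66 ± 0.81 for *LTP2* (SE, adjusted p = 0.000178) and 7.47 ± 0.42 for *PEL3* BnaC02g41520D (SE, adjusted p = 2.1e-05). *MYB16* BnaC02g05990D followed with 4.31 ± 0.56 (SE, adjusted p = 0.000957) and *MYB16* BnaA02g02580D with 3.55 ± 0.32 (SE, adjusted p = 0.000149). *PEL3* BnaA06g26500D had 2.85 ± 0.40 (SE, adjusted p = 0.00161). For the 3 transcripts with vasculature libraries at 0 or near it, the size of the log2 difference was set by the level in the epidermis and by the pseudocount of 1 FPKM, and it understates their change.

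Between cortex and vasculature, *PEL3* BnaC02g41520D and *LTP2* were higher in the cortex, 2 of the 5 transcripts, where 4.25% of all transcripts were higher. *PEL3* BnaC02g41520D differed by 5.06 ± 0.47 on the log2 scale (SE, adjusted p = 0.000526) and *LTP2* by 5.66 ± 0.91 (SE, adjusted p = 0.00531). The *MYB16* homologs had log2 differences of 1.10 ± 0.36 for BnaA02g02580D (SE, adjusted p = 0.0983) and 1.76 ± 0.62 for BnaC02g05990D (SE, adjusted p = 0.123). *PEL3* BnaA06g26500D had 0.93 ± 0.45 (SE, adjusted p = 0.265). The acyltransferase homolog of subgenome C and the lipid transfer protein transcript thus passed this test, while the *MYB16* homologs and the lower *PEL3* homolog, with 1 to 31 fragments in the cortex libraries, did not. The pseudocount of 1 FPKM limits the log2 differences of these low transcripts here as well. With 0.1 FPKM instead, *MYB16* BnaC02g05990D had 4.29 (limma, adjusted p = 0.03). *MYB16* BnaA02g02580D then had 2.64 (adjusted p = 0.0695) and *PEL3* BnaA06g26500D 3.12 (adjusted p = 0.0539). Both cortex libraries lay above all vasculature libraries for the 5 transcripts, as for 18.4% of all transcripts. For *PEL3* BnaA06g26500D and *MYB16* BnaC02g05990D this rested on 1 fragment in cortex 1 against 0 in the vasculature. The call of *LTP2* was lost without cortex 2 (4.69, adjusted p = 0.0769), and *MYB16* BnaC02g05990D was called without cortex 1 (2.99, adjusted p = 0.00965).

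**Figure D2:**
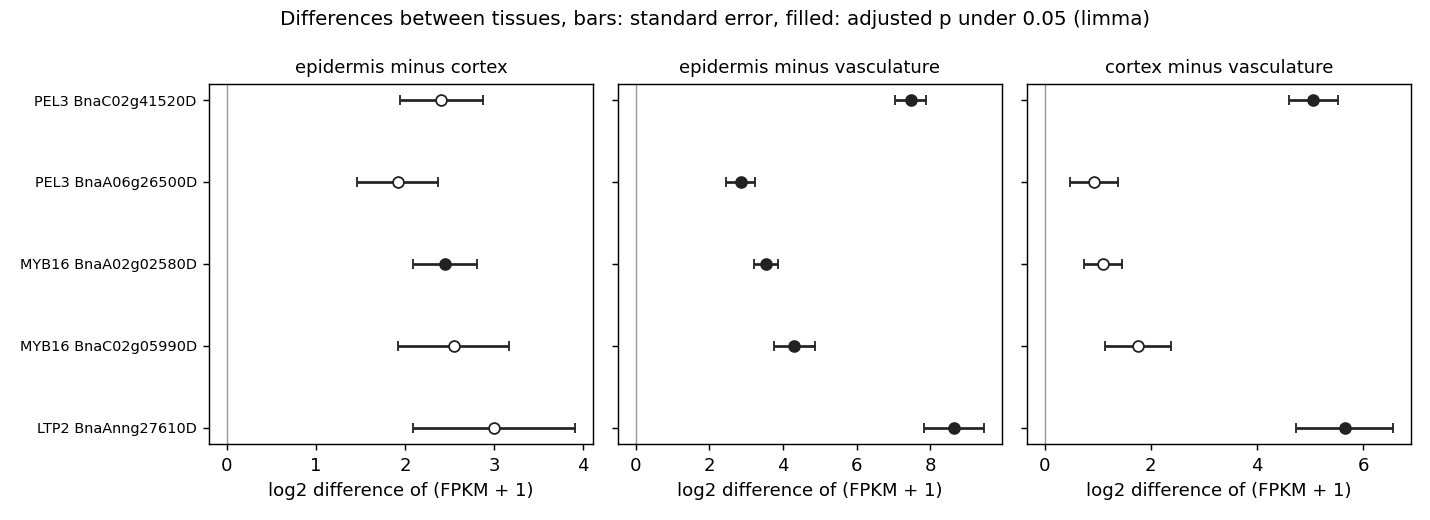
Difference of each transcript between tissues, as the log2 difference of (FPKM + 1) on the horizontal axis, for epidermis minus cortex, epidermis minus vasculature and cortex minus vasculature. Points are limma estimates, bars are standard errors, and filled points have an adjusted p under 0.05. Filled points number 1 of 5, 5 of 5 and 2 of 5 from left to right.

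The homologs of *PEL3* differed in level and those of *MYB16* did not separate. In each epidermis library, *PEL3* BnaC02g41520D stood at 66.0, 74.6 and 42.5 times the level of BnaA06g26500D. The ratio was 177 and 48.8 in the cortex libraries, the first against a value of 1 fragment, and 70.4 and 32.5 in whole funiculus 1 and 3. Of the summed level of these 2 homologs, that of subgenome A made up 1.76% in the epidermis and 1.47% in the cortex. It made up 1.99% in the whole funiculus and was listed at 0 in the vasculature. Other transcripts of *PEL3* or *MYB16*, if the deposited table holds any, were not part of the sums used here. On the log2(FPKM + 1) scale the mean ratio over the 8 tissue libraries was 3.81 (SD 2.34), with BnaC02g41520D above in 8 of 8 libraries (exact two-sided sign-flip permutation test, p = 0.0078125, the smallest that 8 libraries can give, adjusted p = 0.015625 over 2 homolog pairs).

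For *MYB16*, the ratio of BnaC02g05990D to BnaA02g02580D was 1.11, 0.954 and 2.63 in the epidermis, 0.337 and 3.49 in the cortex, and 1.39 and 0.645 in whole funiculus 1 and 3. Either homolog was thus the higher one in some library of each of these groups. In the vasculature BnaC02g05990D was listed at 0 in all 3 libraries, and BnaA02g02580D was above it in vasculature 1 and 3 and also at 0 in vasculature 2. Of the summed level of these 2 *MYB16* homologs, that of subgenome A held 41.8% in the epidermis and 30.9% in the cortex. It held 50.1% in the whole funiculus. Its share across vasculature libraries was 100%, on 4 fragments. The mean log2 ratio of (FPKM + 1) over the 8 tissue libraries was 0.15 (SD 0.79), with BnaC02g05990D above in 3 of 8, below in 4 and level at 0 in 1 (exact two-sided sign-flip permutation test, p = 0.594, adjusted p = 0.594). The ratios ran from -0.68 in cortex 1 to 1.41 in cortex 2. In the vasculature both homologs were under 1 FPKM, so the pseudocount held the ratios there towards 0. The smallest mean difference that the test could detect was not determined, so a difference between the homologs is not excluded.

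To ask whether the homologs of a pair differed in their preference for the epidermis, the same ratios were compared between tissues. The *PEL3* log2 ratio averaged 5.67 ± 0.34 in the epidermis (SD, n = 3) and 2.70 ± 2.33 in the other 5 tissue libraries (SD), a difference of 2.97 (exact two-sided permutation test over 56 choices, p = 0.0536, adjusted p = 0.107). The *MYB16* log2 ratio averaged 0.46 ± 0.74 in the epidermis (SD, n = 3) and -0.03 ± 0.85 in the other libraries (SD), a difference of 0.49 (exact permutation test, p = 0.429, adjusted p = 0.429). Neither difference passed. The *PEL3* ratio was 5.36 and 4.99 in cortex 1 and 2, and 1.91, 0.52 and 0.70 across the vasculature libraries. BnaA06g26500D was listed at 0 in every vasculature library, and the pseudocount bounds the ratio there. With a pseudocount of 1 FPKM, the ratio of homologs of unequal level shrinks where both are low, even if their preference is the same. For *PEL3* the test therefore cannot tell a difference in preference from low levels in the vasculature, and no conclusion is drawn. The same limit holds for *MYB16*, where both homologs were under 1 FPKM in the vasculature. How alike the homologs of a pair are in sequence was not examined. How reads that match both homologs were counted was not given in the sources used here. The part of shared reads in these ratios was not tested.

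**Figure D3:**
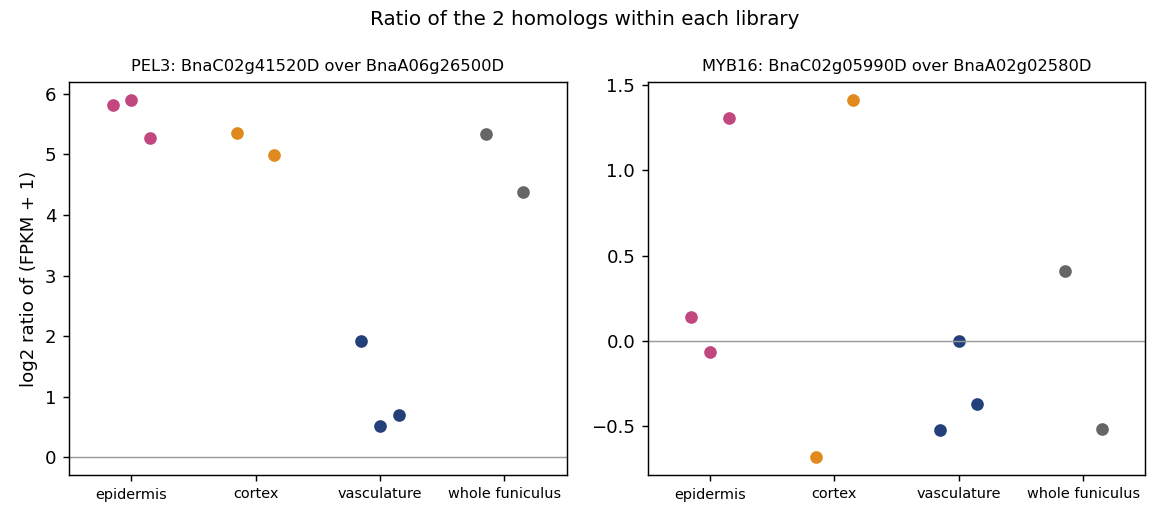
Ratio of the homolog of subgenome C to that of subgenome A within each library, as the log2 ratio of (FPKM + 1) on the vertical axis, for *PEL3* on the left and *MYB16* on the right. Each point is 1 library, and the horizontal line marks equal levels. All *PEL3* points lie above the line, and the *MYB16* points lie on both sides of it.

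The 2 cortex libraries did not carry the transcripts at the same level. Relative to the epidermis mean of the same transcript, cortex 1 stood at 14.2% for *PEL3* BnaC02g41520D, 9.50% for *MYB16* BnaA02g02580D, 6.10% for *LTP2*, 4.49% for *PEL3* BnaA06g26500D and 2.30% for *MYB16* BnaC02g05990D. Cortex 2 stood at 23.9% for *PEL3* BnaC02g41520D, 14.5% for *MYB16* BnaA02g02580D, 23.3% for *LTP2*, 27.4% for *PEL3* BnaA06g26500D and 36.3% for *MYB16* BnaC02g05990D. Cortex 2 was above cortex 1 for all 5, by 1.52 to 15.8 times, whereas 52.4% of all transcripts were higher in cortex 2. Cortex 2 had the greater relative depth, 0.739 against 0.376 in cortex 1 on a scale where whole funiculus 3 is 1.

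Other transcripts with a known place in the epidermis were set beside this. For the 5 cuticle transcripts the epidermis mean was 5.18 to 8.34 times the cortex mean. It was 5.42 times the cortex mean for *KCS10*, which encodes an enzyme of very-long-chain fatty acid synthesis (BnaA09g40640D), 5.11 times for *SHN3*, a transcription factor of the cuticle (BnaC09g04040D), and 8.86 times for *PDF2*, a transcription factor of epidermal identity (BnaC09g22500D). These 3 markers and 4 of the 5 transcripts came through the same threshold of 5-fold on these libraries, so the likeness of their ratios is not a result. Between the cortex libraries, however, *KCS10* was at 0.726 times in cortex 2 relative to cortex 1, *SHN3* at 1.14 times and *PDF2* at 1.91 times. Of all 8 cuticle transcripts on the study's list, 3 were higher in cortex 2, with *CUS2* furthest at 5.72 times, 3 were lower, with *CYP86A2* at 0.254 times and *LTP6* at 0.389 times beside *KCS10*, and the rest were listed at 0 in both cortex libraries. The summed level of 9 vascular markers was 39.7 FPKM in cortex 2 and 19.7 FPKM in cortex 1, with 8 of 9 higher in cortex 2, against 668 to 812 FPKM in the vasculature and 2.25 to 6.49 FPKM in the epidermis. Whether cells of a neighbouring tissue contributed to the cortex values was not tested.

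**Figure D4:**
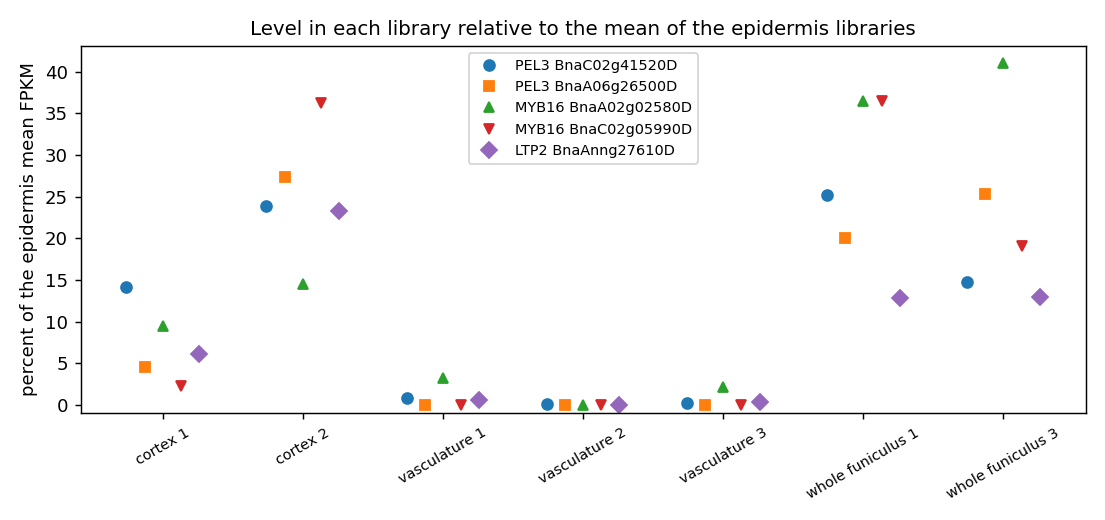
Level of each transcript in the cortex, vasculature and whole funiculus libraries, as a percentage of its mean FPKM over the 3 epidermis libraries. Each symbol is 1 transcript. Cortex 2 lies above cortex 1 for every transcript, and no vasculature value exceeds 3.17%.

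Among the epidermis libraries, the highest stood at 1.44 to 2.53 times the lowest. Epidermis 3 was highest for both *PEL3* homologs and for *MYB16* BnaC02g05990D, epidermis 1 for *LTP2* and *MYB16* BnaA02g02580D, and epidermis 2 was lowest for all except *MYB16* BnaA02g02580D. Epidermis 1 also carried 12 pollen markers at a summed 800 FPKM, against 93.2 FPKM in epidermis 2 and 3.68 FPKM in epidermis 3. These markers also summed to 91.3 FPKM in vasculature 2 and 63.6 FPKM in whole funiculus 1. In the other cortex, vasculature and whole funiculus libraries they summed to 0.417 to 33.5 FPKM. Their part in the levels of the cuticle transcripts was not tested.

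In whole funiculus 1 and 3, the 5 transcripts lay between the epidermis and the vasculature. *PEL3* BnaC02g41520D had 92.8 and 54.2 FPKM in these libraries, and its epidermis mean was 5.01 times their mean. *LTP2* was at 334 and 335 FPKM, and its epidermis mean was 7.76 times that, the largest such ratio of the 5. *PEL3* BnaA06g26500D was at 1.32 and 1.67 FPKM, with an epidermis ratio of 4.42.

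The *MYB16* homologs had the lowest such ratios of the 5, a difference between transcripts that was not tested. *MYB16* BnaA02g02580D was at 5.03 and 5.67 FPKM, with an epidermis mean of 2.58 times their mean, and BnaC02g05990D was at 7.01 and 3.66 FPKM, with a ratio of 3.60. All epidermis libraries lay above whole funiculus 1 and 3 for the 5 transcripts, as for 13.4% of all transcripts.

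After adjustment over 46004 transcripts, *PEL3* BnaC02g41520D was the 1 of 5 with a higher level in epidermis than whole funiculus libraries, where 0.53% of all transcripts were higher. Its log2 difference was 2.34 ± 0.46 (limma, SE, adjusted p = 0.0223), in 3 of 3 epidermis libraries. The other 4 had log2 differences of 1.18 to 2.89 with adjusted p of 0.0965 to 0.212. All 5 had an unadjusted limma p under 0.05, as did 6712 of the 46004 transcripts in either direction. The call on *PEL3* was lost with whole funiculus 2 included (3.02, adjusted p = 0.142) and in 4 of the 5 fits that left out an epidermis or whole funiculus library, where the log2 difference ran from 1.96 to 2.73 over the 5 fits.

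The vasculature was lower than the whole funiculus for 3 of the 5, where 1.14% of all transcripts were lower. *PEL3* BnaC02g41520D differed by -5.13 ± 0.46 on the log2 scale (limma, SE, adjusted p = 0.00071), *LTP2* by -5.77 ± 0.86 (SE, adjusted p = 0.0105) and *MYB16* BnaA02g02580D by -2.37 ± 0.33 (SE, adjusted p = 0.00865). With whole funiculus 2 included none of the 3 passed, at adjusted p of 0.0702 for *PEL3*, 0.351 for *LTP2* and 0.488 for *MYB16*. The calls of *LTP2* and *MYB16* were also lost without whole funiculus 1 (adjusted p of 0.122 and 0.0676 in that order) and without whole funiculus 3 (0.129 and 0.0908).

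Between cortex and whole funiculus 0 of the 5 passed in either direction (limma), where 1.31% of all transcripts did. An unadjusted p under 0.05 was reached by 4777 of the 46004 transcripts, and by 1 of the 5. That 1 was *MYB16* BnaA02g02580D, at 1.31 and 2.00 FPKM in the cortex and 5.03 and 5.67 FPKM in the whole funiculus, a log2 difference of -1.27 ± 0.37 (SE, adjusted p = 0.189). For *LTP2* and *PEL3* BnaC02g41520D the log2 differences were -0.11 ± 0.94 and -0.06 ± 0.51 (SE), so their cortex and whole funiculus levels differed by less than the error.

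Other transcripts that may belong to the cuticle were counted in 2 lists. The first held 8 transcripts that the study had picked as epidermis-enriched on these libraries, among them *KCS10*, *SHN3*, *PDF2*, the fatty acid hydroxylase gene *CYP86A2* and the cutin synthase gene *CUS2*, so its direction is not independent evidence. All 8 were higher in the epidermis than in the vasculature, where 6.42% of all transcripts were, and 4 were higher in the cortex than in the vasculature, where 4.25% were. Between epidermis and cortex 0 passed (limma), where 0.0883% of all transcripts were higher. All 8 had an unadjusted limma p under 0.05, as did 4756 of the 45300 transcripts in either direction. The median log2 difference for epidermis minus cortex was 2.45 over the 5 transcripts and 2.39 over this list, and for cortex minus vasculature it was 1.76 over the 5 transcripts and 2.08 over this list.

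The second list held 12 transcripts of chromosome A01, where annotation was at hand. They were chosen by the description of their Arabidopsis match, such as lipid transfer, GDSL lipase, wax synthase or the HXXXD family. Such a description does not show that a transcript acts in the cuticle. This list, too, was drawn up with earlier results of these data known. The list was mixed: 6 were higher in the epidermis than in the vasculature (6.42% of all transcripts) and 0 lower. In the cortex 5 were higher than in the vasculature (4.25%). Between epidermis and cortex 0 passed in either direction (limma), where 88 of the 45300 transcripts did. An unadjusted p under 0.05 was reached by 4756 of the 45300, and by 8 on this list. Of these 8, BnaA01g18740D (-2.41) and BnaA01g21180D (-1.69) were higher in the cortex, and the rest were higher in the epidermis. The median log2 difference of the 12 for epidermis minus cortex was 0.80, and 7 of 12 had all epidermis libraries above both cortex libraries, as did 10.6% of all transcripts. This list includes a homolog of *MYB106* (BnaA01g33290D), the close relative of *MYB16*. It was at 3.00, 7.08 and 7.60 FPKM in the epidermis, 1.78 and 2.17 FPKM in the cortex and 0, 0 and 0.159 FPKM in the vasculature, a log2 difference of 1.14 for epidermis minus cortex (adjusted p = 0.328). The epidermis mean was 8.34 and 5.18 times the cortex mean for the *MYB16* homologs and 2.99 times for *MYB106*, a difference between the genes that was not tested.

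**Figure D5:**
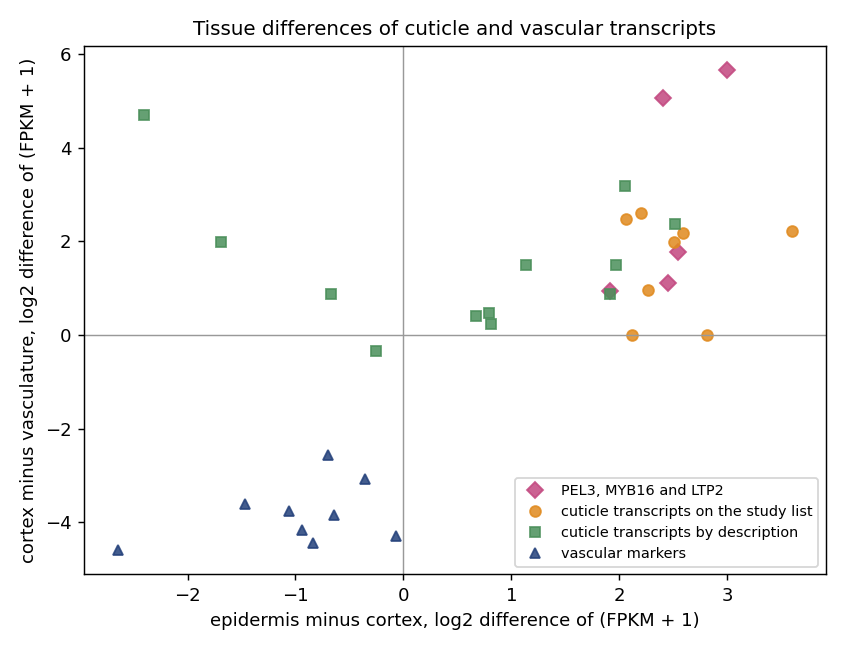
Epidermis minus cortex on the horizontal axis against cortex minus vasculature on the vertical axis, both as log2 differences of (FPKM + 1), with each point a transcript. *LTP2* and *PEL3* BnaC02g41520D stand highest on the vertical axis, at 5.66 and 5.06. The vascular markers lie below 0 on both axes, and the transcripts chosen by description are spread on both sides of 0 horizontally.

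The transcripts whose levels followed each of the 5 most closely were found by the Pearson correlation of log2(FPKM + 1) over the 8 tissue libraries, among 20102 transcripts. The libraries are shared by all transcripts and fall into 3 tissues, so a high r mainly restates a like fall over the tissues. For *PEL3* BnaC02g41520D the nearest were BnaC01g03230D (r = 0.999) and BnaCnng34700D (r = 0.999), described as a GDSL-like lipase, which had means of 369, 71.1 and 1.15 FPKM in epidermis, cortex and vasculature. Its means were nearly those of *PEL3* itself in each tissue. The nearest to *PEL3* BnaA06g26500D were BnaC04g16900D, an Ole e 1 allergen and extensin family protein (r = 0.999), and BnaA03g51020D, a MATE efflux family protein (r = 0.993).

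*MYB16* BnaA02g02580D was followed most closely by the *PDF2* homolog BnaC09g22500D (r = 0.996), at 8.67 FPKM in the epidermis and 0.979 FPKM in the cortex and listed at 0 in the vasculature. A long-chain fatty alcohol dehydrogenase family transcript, BnaA03g44000D, was also among its nearest 5 (r = 0.991). For *MYB16* BnaC02g05990D the nearest were BnaA02g16200D (r = 0.997) and BnaA07g13160D (r = 0.996), and the nearest 5 included the GDSL-like lipase BnaA01g08120D (r = 0.994). For *LTP2* they were BnaCnng15740D (r = 0.998) and BnaA09g06500D (r = 0.996), and 2 of its nearest 5, BnaC04g45800D at 5847 FPKM and BnaC03g36390D at 3752 FPKM, exceeded *LTP2* in the epidermis mean.

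Among the 5 transcripts themselves, *LTP2* and *PEL3* BnaC02g41520D had r = 0.986, and *PEL3* BnaA06g26500D and *MYB16* BnaC02g05990D r = 0.984. The homologs of *PEL3* had r = 0.908, the lowest of all pairs. Those of *MYB16* had r = 0.937, and for BnaA02g02580D its own homolog was the nearest of the 5, ahead of *PEL3* BnaA06g26500D at 0.927, *LTP2* at 0.922 and *PEL3* BnaC02g41520D at 0.921. The first pair joins the abundant transcripts and the second joins those listed at 0 throughout the vasculature. What sets the differences in r between pairs was not tested.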

How the data were processed

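RNA from laser-microdissected tissue was amplified as cDNA (Ovation RNA-seq V2), and libraries were made with the Illumina TruSeq kit. The authors mapped 50 bp single-end reads to the *B. napus* reference genome of Genoscope with TopHat2 2.0.13 and deposited FPKM values computed with Cufflinks 2.2.1. DESeq is also named in the submitters' processing notes. FPKM were used as deposited. Amplification of little RNA can widen the spread between libraries, and reads carried no molecular identifiers.

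All 11 columns matched a library. Relative depth, read from the spacing of low FPKM values, was 0.34 to 0.838 of whole funiculus 3 in the tissue libraries, 0.759 in whole funiculus 1 and 0.186 in whole funiculus 2. Fragments of a transcript are the largest step of which its values are whole multiples (tolerance 0.05), and would be underestimated if all its counts shared a factor, or overestimated if reads were divided between transcripts. Intervals are exact (Clopper-Pearson) at 95%.

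Tissues were compared on the log2(FPKM + 1) scale by limma 3.58.1 under R 4.3.3, using eBayes with its trend option. A transcript entered if any tissue averaged 1 FPKM or more, which left 45300, and p-values were adjusted after Benjamini-Hochberg with a threshold of 0.05. The fit with whole funiculus 1 and 3 covered 46004 transcripts. The study's own tissue test was not repeated because it needs the reads. Each biological replicate pooled pieces from several plants, per the study's methods. Whether a plant gave pieces to more than 1 replicate was not given in the sources used here, and p-values measure the spread between these pools. Homolog ratios were tested by exact permutation (Python 3.11.15, scipy 1.17.1). The fits were tested on simulated data. Likeness was computed among transcripts that averaged 5 FPKM or more in some tissue and were above 0 in all 3 epidermis libraries, and the nearest 5 per transcript were considered, from which the closest and those with an annotation are named. List members are counted, and *MYB106* is named whatever its values. *KCS10*, *SHN3* and *PDF2* served as epidermal markers. The 5 transcripts and all lists were chosen with earlier results of these data known. Alternatives were the pseudocount, the filter on low values, the variance trend, size factors, a replicate block, the whole funiculus in the fit, and leaving out single libraries. Those for cortex and vasculature minus whole funiculus and for fragment ratios were chosen after seeing the data.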

Additional observations from a re-analysis of the deposited data

Results flagged for a closer look

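Whole funiculus 2, which is in none of the comparisons, held *PEL3* BnaC02g41520D at 16.7 FPKM, on 30 fragments, and *LTP2* at 29.9 FPKM, on 17 fragments. Both are above the 3 fragments that a count of 0 allows, which is why they are listed here. The same transcripts were at 92.8 and 54.2 FPKM (*PEL3*) and 334 and 335 FPKM (*LTP2*) in whole funiculus 1 and 3. The FPKM of all transcripts summed to 1.83e+06 in whole funiculus 2, against 439770 and 491871 in whole funiculus 1 and 3. FPKM of library 2 are thus not on the same scale as those of the other libraries. In this shallow library *MYB16* BnaC02g05990D was at 1.78 FPKM on 2 fragments, and *PEL3* BnaA06g26500D and *MYB16* BnaA02g02580D were listed at 0. The 9 vascular markers summed to 10.2 FPKM there, against 375 and 322 FPKM in whole funiculus 1 and 3. No group had the 4 samples needed to test a single library against the others of its group.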

How the results depend on the processing

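All 5 transcripts stayed higher in the epidermis than in the vasculature under all 16 alternatives (highest adjusted p of 0.0188), and no log2 difference between tissues changed sign. For epidermis minus cortex, *MYB16* BnaA02g02580D lost its call at a pseudocount of 0.5 FPKM (2.70, adjusted p = 0.0721) or 0.1 FPKM (2.97, 0.196), without the filter (2.45, 0.114), without the variance trend (2.45, 0.0596), and in all fits without 1 library (2.26 to 2.69). Without 1 library, *MYB16* BnaC02g05990D ran from 1.31 to 3.78 and was called without cortex 2. For cortex minus vasculature, *LTP2* lost its call without the filter (5.66, adjusted p = 0.0702) and ran from 4.69 to 6.62 without 1 library. *MYB16* BnaC02g05990D gained a call at a pseudocount of 0.1 FPKM (4.29, adjusted p = 0.03) and ran from 0.53 to 2.99 without 1 library. *PEL3* BnaC02g41520D in epidermis minus whole funiculus was at 3.02 with library 2. The cortex minus whole funiculus difference turned positive with library 2 for *PEL3* BnaA06g26500D (0.055), *LTP2* (1.04) and *PEL3* BnaC02g41520D (0.61), the last running from -0.45 to 0.32 without 1 library. The cause was not tested in any of these. The *MYB16* homolog ratio was -0.32 at a pseudocount of 0.1 FPKM and ran from -0.028 to 0.27 without 1 library, negative without epidermis 3 or cortex 2.

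The count of transcripts called between epidermis and cortex, 88, was 44 at a pseudocount of 0.5 FPKM, 163 at a minimum of 5 FPKM, 305 with whole funiculus 1 and 3 in the fit, 31 without the variance trend, 134 with size factors, and 8 to 471 without 1 library. Between cortex and vasculature the count of 4518 became 2904 without the filter and 2814 to 4469 without 1 library. Correlations of deviations from tissue means ran from -0.0959 to 0.203 between libraries of the same replicate number. They ran from -0.268 to 0.268 between libraries of different numbers. The deviations of the 2 cortex libraries mirror each other, so a pairing by number was neither shown nor excluded. With the replicate block, 3 transcripts were called between epidermis and cortex, and *MYB16* BnaA02g02580D had 2.55 (adjusted p = 0.155).

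Depth limits the low transcripts: cortex 1 held 1 fragment each of *PEL3* BnaA06g26500D and *MYB16* BnaC02g05990D. With 2 cortex libraries, leaving out 1 assumes that the other varies like the remaining groups.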
